A study of Mus musculus with 6 samples.

Results

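The genes described here are 39 protein-coding neighbours of Mirc11 on mouse chromosome 8, a locus that holds the microRNA genes Mir23a, Mir27a and Mir24-2. The rule that picks them names position and symbol and no expression value, but it was written with earlier results of these data known. By the same rule 6 further genes of the same region (Mri1, Tbc1d9, Ier2, Junb, Klf1 and Lyl1) were left out of the choice. All 39 had a mean of at least 1 normalized count over the 6 libraries, among 15662 genes of the table that did. The member with the lowest level was Clgn.

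The study sequenced RNA from sorted bone marrow cells of Mirc11-/- mice (3 libraries) and of wildtype mice (3 libraries), to find genes whose expression differs when the cluster is missing. Mirc11-/- mice are of the germline mutant strain B6.Cg-Mirc11tm1Rdhl/J, so every cell of the animal lacks the cluster, and both genotypes are described as C57BL/6. In mouse strain naming, B6.Cg stands for a C57BL/6J background that carries a locus moved in from another donor. How much donor sequence remains beside Mirc11 is not stated. Mice of both genotypes were 6 to 8 weeks old and untreated, each RNA preparation came from cells sorted from the bone marrow of 3 to 4 mice, and the labels give all libraries the same batch. Their sex is not in the labels. The labels give the gate as Lin-Sca1+cKit+, called LSK, which holds haematopoietic stem cells and early progenitors. All 10 LSK markers listed were detected in every library, with Ly6a (the gene of Sca-1) at 374 to 534 normalized counts in Mirc11-/- libraries and 444 to 683 in wildtype libraries.

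MicroRNAs bind messenger RNAs through a short seed at their 5′ end, and pairing in the 3′ UTR usually lowers the level of the messenger. A cluster can thus change genes anywhere in the genome, whereas neighbours on the chromosome share with it the local DNA and chromatin. Genes beside an engineered locus are of interest because they are inherited together with it.

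Mirc11 spans chr8:84208518-84208921 (GRCm38.p6, 404 bases) and lies inside the interval of 1.79 Mb that the 39 genes occupy. Of the 39, 18 lie at lower and 21 at higher coordinates than the locus. The 3 mature microRNAs below, from RefSeq, are shown because the deleted locus encodes them, with their seeds (bases 2 to 8) in capitals. Mature miR-24-3p is also made from Mir24-1 of the paralogous Mirc22 cluster, and miR-23b and miR-27b of that cluster belong to the same seed families, so loss of Mirc11 need not remove these seeds from the cell. The 3 microRNAs of Mirc11 are read from the plus strand, at chr8:84208563-84208583, chr8:84208727-84208747 and chr8:84208875-84208896.
mmu-miR-23a-3p: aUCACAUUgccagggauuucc
mmu-miR-27a-3p: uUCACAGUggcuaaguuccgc
mmu-miR-24-3p: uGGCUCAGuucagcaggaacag

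A perfect match of 7 bases to a seed (AATGTGA for miR-23a-3p, ACTGTGA for miR-27a-3p or CTGAGCC for miR-24-3p, on the sense strand of the longest annotated 3′ UTR) was present in 9 of the 39 genes, or 23.1%. Of 14058 expressed genes with an annotated 3′ UTR, 39.7% held one. The median 3′ UTR was 749 bases long for the 39 neighbours and 1112 bases for all genes. Matches to miR-23a-3p were found in 5.13% of the neighbours and 16.0% of all genes. The shares were 7.69% and 16.8% for miR-27a-3p, and 12.8% and 18.7% for miR-24-3p. A match says only that these letters occur in the longest annotated 3′ UTR, and whether LSK cells use that UTR was not tested. The matches of Podnl1 and Hook2 lie well inside the gene spans, chr8:84125928-84142991 and chr8:84988776-85003352. The matches below (GENCODE transcripts, GRCm38, match in capitals) belong to the 6 neighbours that had both a match and an unadjusted limma p under 0.05. Man2b1 and Podnl1 were higher in Mirc11-/- cells, and Nacc1, Hook2, Dnase2a and Syce2 were lower.
Man2b1, miR-27a-3p, chr8:85097621-85097643, plus strand: ggacacagACTGTGAgatgtagg
Podnl1, miR-24-3p, chr8:84132243-84132265, plus strand: aaggagccCTGAGCCctggaggg
Nacc1, miR-23a-3p, chr8:84670522-84670544, minus strand: tgttgggaAATGTGAaccctgag
Hook2, miR-27a-3p, chr8:84999217-84999239, plus strand: catatgggACTGTGAttccagca
Dnase2a, miR-24-3p, chr8:84911541-84911563, plus strand: cagtgctgCTGAGCCacactccc
Syce2, miR-23a-3p, chr8:84887196-84887218, plus strand: tccatctcAATGTGAgaaggcac
The other matches lay in Cacna1a, Ddx39 and Asf1b, and Nacc1 also held matches to miR-24-3p. Among the 30 neighbours with no match, 9 had an unadjusted p under 0.05. The shares passing with and without a match were not computed over all genes, and a link between match and difference was not tested.

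The libraries held 15029379 to 17051541 reads, taking the smallest step of each library as 1 read, so a normalized count was close to 1 read. Mir23a, Mir27a and Mir24-2 were at 0 in all 3 Mirc11-/- libraries, against 15.8 to 19.3, 9.86 to 28.4 and 7.89 to 44.6 normalized counts in the wildtype libraries. On the first principal component of all genes, Mirc11-/- libraries 1 and 2 stood at -54.6 and -25.5, and Mirc11-/- library 3 stood at 19.5, inside the wildtype range of 13.5 to 26.2. Erythroid markers moved with this split. Their summed level was 47893, 44959 and 20671 normalized counts in Mirc11-/- libraries 1 to 3, against 19626 to 27228 in the wildtype libraries, with 16 of 17 markers tested and none of these at 0 in all libraries. Mast cell and basophil markers summed to 2119, 1012 and 716 in Mirc11-/- libraries 1 to 3, against 558 to 889 in the wildtype libraries. The 10 LSK markers summed to 25403, 32771 and 45228 in Mirc11-/- libraries 1 to 3, against 38365 to 45624 in the wildtype libraries, and 2 of them, Flt3 and Cd34, were lower in Mirc11-/- cells at an unadjusted p under 0.05. Values are therefore given with Mirc11-/- library 3 marked throughout. In sorted bulk cells, fewer cells of a type and less RNA per cell cannot be told apart. The p-values below measure the spread among these pooled preparations.

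The first question was whether the neighbours differ between the genotypes more often than genes at large. None of the 39 passed an adjusted p of 0.05 (limma, Benjamini-Hochberg over all 15662 genes), where 5 genes or 0.0319% did. At an unadjusted p under 0.05, 15 neighbours passed, which is 38.5% of them against 8.24% of all genes. Of these, 4 were higher in Mirc11-/- cells, where 4.15% of all genes were, and 11 were lower, where 4.09% of all genes were. The values of the genotypes did not overlap for 16 neighbours (41.0%), against 12.9% of all genes. In 6 of them the Mirc11-/- libraries were higher, against 6.42% of all genes, and in 10 they were lower, against 6.53%. The size of the difference also stood above that of all genes, with a median absolute log2 fold change (Mirc11-/- minus wildtype, on log2 of the normalized count + 1) of 0.25 for the neighbours and 0.14 for all genes. In sign the neighbours were mixed: 18 log2 fold changes were positive and 21 negative, with a median of -0.05. Without Mirc11-/- library 3, Lphn1, Hook2 and Ptger1 fell and Prdx2 rose at the adjusted threshold. These are 4 of 39 neighbours, against 2.75% of all genes in the same comparison. At an unadjusted p under 0.05 that comparison held 19 neighbours, against 20.0% of all genes.

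**Figure D1:**
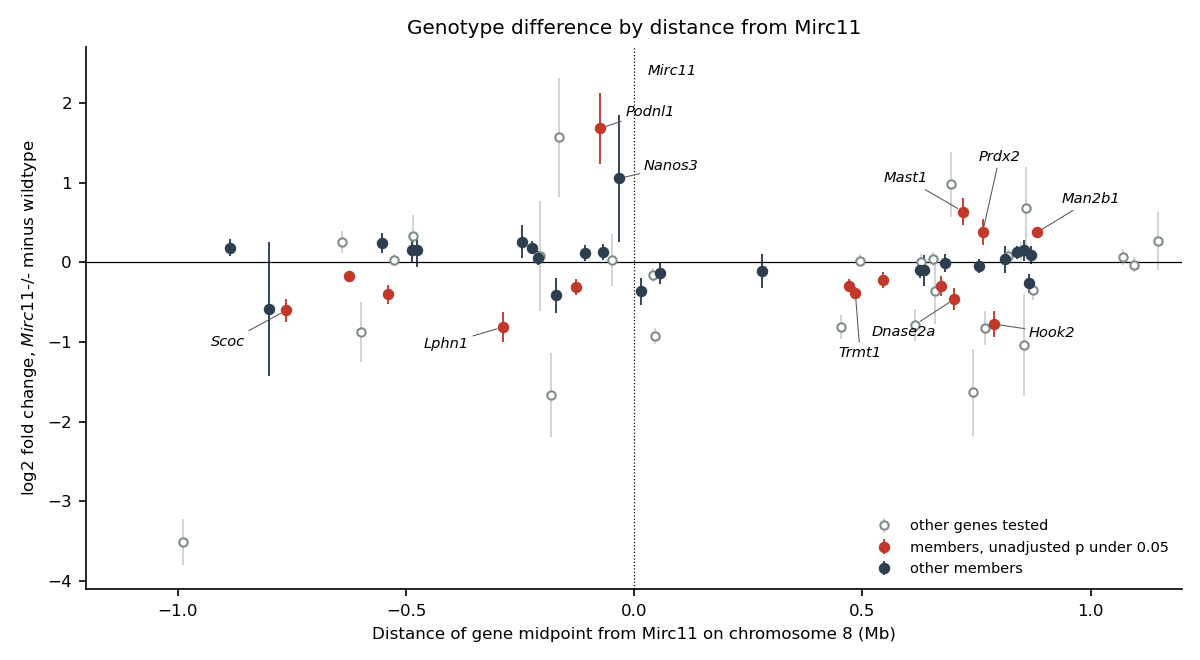
Log2 fold change (Mirc11-/- minus wildtype, vertical axis) of each tested gene by the distance of its midpoint from Mirc11 in Mb (horizontal axis), with bars of 1 SE. Red points are neighbours with an unadjusted p under 0.05, dark points the other neighbours and open points other genes. Red points lie on both sides of the locus and both above and below 0, with 4 higher and 11 lower.

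Of the 13 neighbours with a midpoint up to 0.3 Mb from Mirc11, 3 had an unadjusted p under 0.05. Between 0.3 and 0.6 Mb 4 of 7 did, and between 0.6 and 0.9 Mb 8 of 19. Both flanks took part: 6 of 18 neighbours at lower coordinates passed (1 higher, 5 lower) and 9 of 21 at higher coordinates (3 higher, 6 lower). Counting every tested gene, the window of 1 Mb below Mirc11 held 9 of 27 and the window above it 16 of 37. The next windows above held 0 of 9 and 0 of 4, and those below held 1 of 3 and 1 of 1. Over all of chromosome 8 outside the interval of the neighbours, these outer windows and Tbc1d9 included, 75 of 743 genes passed, or 10.1%.

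**Figure D2:**
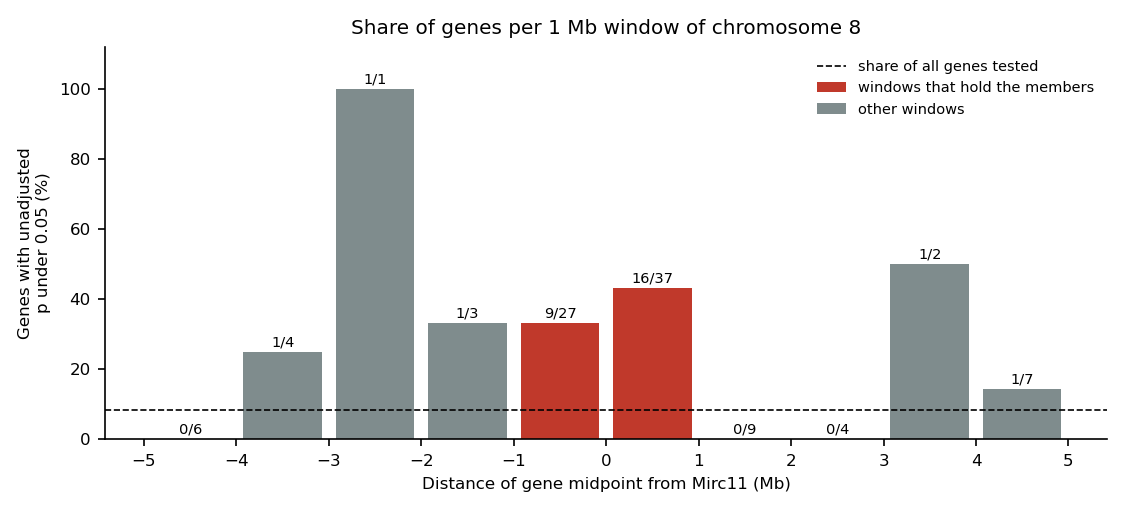
Percentage of tested genes with an unadjusted limma p under 0.05 (vertical axis) in windows of 1 Mb by distance from Mirc11 in Mb (horizontal axis), with the number passing and tested above each bar. The 2 windows that hold the neighbours stand at 33.3% and 43.2%, above the dashed line at 8.24% for all genes, and the outer windows hold 1 to 9 genes each.

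Of the 3 neighbours nearest to the deletion on either side, only Podnl1 passed an unadjusted p of 0.05. Zswim4, which encodes a zinc finger protein of the SWIM family, is on the minus strand, and its 3′ end lies 2.0 kb from the locus. It had 334, 429 and 548 normalized counts in Mirc11-/- libraries 1 to 3, against 561, 520 and 573 in wildtype libraries 1 to 3. The genotypes overlapped through Mirc11-/- library 3, and the log2 fold change was -0.36 ± 0.17 (SE, limma adjusted p = 0.611). It was -0.54 without Mirc11-/- library 3, -0.18 without Mirc11-/- library 1 and -0.08 in a fit that also held each library's mean log2 erythroid marker level (the erythroid covariate). On the other side, 32.0 kb away, lies Nanos3, an RNA-binding protein of germ cells. With 3.78, 7.27 and 10.1 normalized counts in Mirc11-/- libraries and 0, 5.96 and 6.08 in wildtype libraries, it overlapped between the genotypes, at a few reads per library. Ccdc130, a relative of a yeast splicing factor, had 222, 225 and 266 normalized counts in Mirc11-/- libraries, against 251, 285 and 247 in wildtype libraries, which overlap. Cacna1a, the pore subunit of the P/Q-type calcium channel, had 101, 138 and 173 in Mirc11-/- libraries, against 143, 139 and 153 in wildtype libraries, and these overlapped too. Cc2d1a, a scaffold and transcriptional repressor 60.6 kb from Mirc11, had 691, 646 and 779 in Mirc11-/- libraries, against 634, 674 and 628 in wildtype libraries. Its log2 fold change was 0.12 ± 0.10.

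Podnl1 (chr8:84125928-84142991, GRCm38.p6, plus strand) encodes a secreted protein with leucine-rich repeats, and its 3′ UTR carries the miR-24-3p match shown above. It had 48.2, 120 and 104 normalized counts in Mirc11-/- libraries 1 to 3, against 23.7, 15.9 and 44.6 in wildtype libraries 1 to 3. All Mirc11-/- values lay above all wildtype values, although Mirc11-/- library 1 and wildtype library 3 came close. The log2 fold change was 1.68 ± 0.45 (SE, limma adjusted p = 0.431), the highest of the 39 neighbours, and 1.35 to 2.08 when each library was left out in turn. The gene shares its span with Cc2d1a on the opposite strand, and the exons of the 2 genes do not overlap.

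Of 7 neighbours that act in the secretory pathway and lysosome, 1 was higher (Man2b1) and 2 were lower (Scoc and Dnase2a) at an unadjusted p under 0.05. Man2b1 (chr8:85082730-85098739, plus strand), the lysosomal α-mannosidase that trims glycans of degraded glycoproteins, had the lowest p of all neighbours. Its values were 5948, 5353 and 5665 normalized counts in Mirc11-/- libraries 1 to 3, against 4309, 4271 and 4509 in wildtype libraries 1 to 3. Every Mirc11-/- library stood above every wildtype library, and library 3 was no exception: it showed 102% of the mean log2 difference of libraries 1 and 2. The means were 5655 ± 297 in Mirc11-/- cells and 4363 ± 128 in wildtype cells (SD, n = 3 each). The log2 fold change was 0.37 ± 0.07 (SE, limma adjusted p = 0.397), and adjusted p spanned 0.0508 to 0.998 over the alternatives. Man2b1 lies at the far end of the interval, 873.8 kb from Mirc11.

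Scoc (chr8:83434492-83458436, minus strand), a short coiled-coil protein of the Golgi with a part in autophagy, lies 750.1 kb away on the other flank. It had 236, 224 and 182 normalized counts in Mirc11-/- libraries, against 347, 303 and 324 in wildtype libraries. Here Mirc11-/- library 3 was the lowest of all 6, and the log2 fold change was -0.60 ± 0.14 (limma adjusted p = 0.419). Dnase2a, the lysosomal nuclease that digests the DNA of engulfed cells and of expelled erythroblast nuclei, had 627, 608 and 513 in Mirc11-/- libraries, against 953, 765 and 700 in wildtype libraries. Its genotypes did not overlap, Mirc11-/- library 3 was again the lowest, and the log2 fold change was -0.46 ± 0.14 (limma adjusted p = 0.458).

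The other 4 of this group did not pass. Elmod2, a GTPase-activating protein for Arl2, had 464, 444 and 427 normalized counts in Mirc11-/- libraries, against 380, 389 and 406 in wildtype libraries, without overlap but with a log2 fold change of only 0.18 ± 0.10. Calr, the calcium-binding chaperone calreticulin, was the most abundant neighbour per length, at 10439 normalized counts per kb of exon in Mirc11-/- cells and 10933 in wildtype cells. It had 39841, 27761 and 22587 normalized counts in Mirc11-/- libraries 1 to 3, against 30254, 35933 and 28277 in wildtype libraries, and the highest and the lowest value of all 6 were both Mirc11-/-. Its log2 fold change was -0.10 over all libraries and 0.09 without Mirc11-/- library 3. Of 11 chaperones and folding enzymes that work with calreticulin, 0 were higher and 1, Hspa5, was lower at an unadjusted p under 0.05, and their median log2 fold change was -0.02 against 0.0025 for all genes. Asna1, which delivers tail-anchored proteins to the endoplasmic reticulum, had a log2 fold change of 0.03. Clgn, a chaperone of male germ cells, was at 0 to 2.08 normalized counts in Mirc11-/- libraries and 0 to 4.96 in wildtype libraries.

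Among 6 genes of cell surface receptors, channels and the secreted Podnl1, 3 passed an unadjusted p of 0.05: Podnl1 above, and Lphn1 and Ptger1, which were lower. Lphn1 (chr8:83900098-83941954, plus strand, now Adgrl1), the adhesion G protein-coupled receptor latrophilin-1, had 345, 353 and 585 normalized counts in Mirc11-/- libraries 1 to 3, against 750, 755 and 684 in wildtype libraries 1 to 3. Mirc11-/- libraries 1 and 2 were alike, and library 3 showed 30.0% of their log2 difference while staying below every wildtype library. The log2 fold change was -0.81 ± 0.19 (SE, limma adjusted p = 0.419), and -1.06 without Mirc11-/- library 3 (limma adjusted p = 0.0127). Leaving out any other library gave limma adjusted p of 0.514 to 0.998. Ptger1, a receptor for prostaglandin E2, showed the same pattern, with 926, 925 and 1209 in Mirc11-/- libraries, against 1247, 1407 and 1370 in wildtype libraries. Library 3 showed 27.8% of the difference, and the log2 fold change was -0.40 ± 0.12 over all libraries and -0.53 without it (limma adjusted p = 0.0234). For Ptger1 too, leaving out any other library gave a higher limma adjusted p, at 0.595 to 0.998. With the erythroid covariate the log2 fold changes were -0.48 for Lphn1 and -0.20 for Ptger1.

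The remaining receptors did not pass. Il27ra, a receptor subunit for interleukin-27, had a log2 fold change of -0.42 ± 0.22 over all libraries. This was -0.64 without Mirc11-/- library 3 and -0.02 with the erythroid covariate. Cd97 (now Adgre5), an adhesion receptor of leukocytes, averaged 1201 ± 351 normalized counts in Mirc11-/- cells and 1056 ± 135 in wildtype cells (SD, n = 3 each). Its log2 fold change of 0.15 was 0.40 without Mirc11-/- library 3 and -0.27 with the erythroid covariate. The gene shares 23.8% of its exon bases with Ddx39 on the opposite strand.

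**Figure D3:**
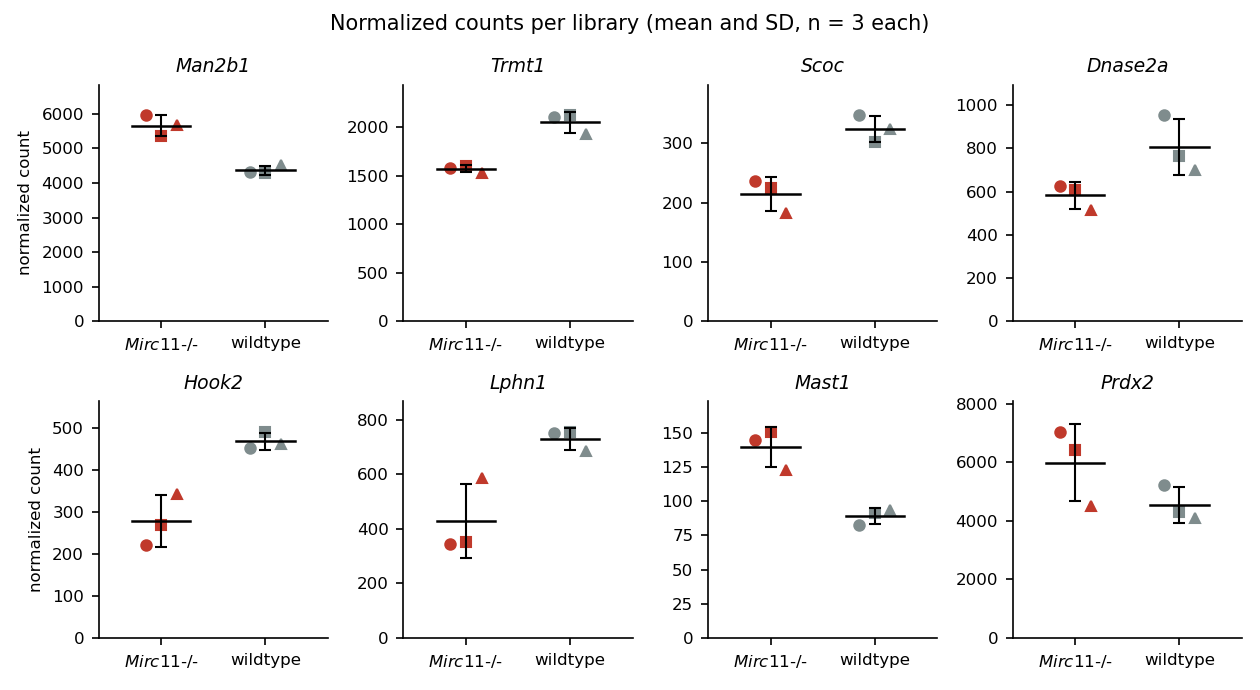
Normalized counts (vertical axis, from 0) of 8 neighbours in the 3 Mirc11-/- libraries (left, red) and the 3 wildtype libraries (right, grey), with replicate 1 as a circle, 2 as a square and 3 as a triangle, and with means and SD bars. Man2b1, Trmt1, Scoc, Dnase2a, Hook2, Lphn1 and Mast1 do not overlap between the genotypes, whereas in Prdx2 the Mirc11-/- triangle at 4520 lies among the wildtype points.

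Kinases, scaffolds and trafficking adaptors numbered 7, of which Mast1 was higher and Hook2 lower at an unadjusted p under 0.05. Hook2 (chr8:84988776-85003352, plus strand), an adaptor that links cargo to the dynein motor, had 220, 268 and 343 normalized counts in Mirc11-/- libraries 1 to 3, against 452, 490 and 462 in wildtype libraries. The genotypes stood well apart, with library 3 the highest of the Mirc11-/- libraries at 47.3% of the log2 difference of the other two. The means were 277 ± 61.9 in Mirc11-/- cells and 468.0 ± 20.0 in wildtype cells (SD, n = 3 each). The log2 fold change was -0.78 ± 0.16 (SE, limma adjusted p = 0.406), and -0.94 without Mirc11-/- library 3 (limma adjusted p = 0.0147). Leaving out any other library gave limma adjusted p of 0.332 to 0.998. With the erythroid covariate the log2 fold change was -0.51.

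Mast1 (chr8:84911853-84946177, minus strand), a kinase that binds microtubules, had 145, 151 and 123 normalized counts in Mirc11-/- libraries, against 82.8, 91.3 and 93.2 in wildtype libraries. All Mirc11-/- libraries were higher, and the log2 fold change was 0.64 ± 0.17 (limma adjusted p = 0.441). Mast1 and Dnase2a are neighbours on opposite strands, and one was higher and the other lower. In GENCODE they share 25.0% and 30.0% of their exon bases, whereas their RefSeq spans do not overlap. Which annotation gave the deposited counts is not stated. Whether reads were counted by strand is not stated, so the counts of neighbours that share exon bases with another gene are uncertain. Prkaca, the catalytic subunit of protein kinase A, had 1282, 1166 and 1178 in Mirc11-/- libraries, against 1081, 1079 and 1030 in wildtype libraries. These did not overlap either, with a log2 fold change of 0.18 ± 0.08, just outside the unadjusted threshold. Tnpo2, a nuclear import receptor, had 2359, 2245 and 2074 in Mirc11-/- libraries, against 2063, 1994 and 2067 in wildtype libraries. The lowest Mirc11-/- value exceeded the highest wildtype value narrowly, and the log2 fold change was 0.12 ± 0.08, and 0.04 with the erythroid covariate. Gipc1, a PDZ adaptor for membrane receptors, had a log2 fold change of 0.25, and Dcaf15 and Fbxw9, both of which recruit substrates to ubiquitin ligases, had 0.12 and 0.15.

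The 7 genes of transcription and chromatin gave 3 that passed an unadjusted p of 0.05, all lower in Mirc11-/- cells. Nacc1 (chr8:84670477-84687862, minus strand), a BTB domain repressor, had 2681, 2448 and 2876 normalized counts in Mirc11-/- libraries, against 3231, 3352 and 3204 in wildtype libraries, with no overlap. Its log2 fold change was -0.29 ± 0.08 (SE, limma adjusted p = 0.444). Rfx1, a winged-helix factor that binds X-box promoters, had 683, 671 and 742 in Mirc11-/- libraries, against 780, 907 and 919 in wildtype libraries. It did not overlap, with a log2 fold change of -0.31 ± 0.10 (limma adjusted p = 0.490). Nfix, a nuclear factor I protein with a known part in haematopoietic stem cell survival, had 1510, 1705 and 1732 in Mirc11-/- libraries, against 1724, 1989 and 2078 in wildtype libraries. Mirc11-/- library 3 lay just above wildtype library 1, and the log2 fold change was -0.23 ± 0.10 (limma adjusted p = 0.597), and -0.11 with the erythroid covariate.

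Asf1b, a histone H3-H4 chaperone of dividing cells, averaged 1005 ± 303 normalized counts in Mirc11-/- cells and 822 ± 138 in wildtype cells (SD, n = 3 each). Its log2 fold change of 0.26 ± 0.21 was within the spread of the libraries, and was -0.15 with the erythroid covariate. Of 23 DNA replication genes listed beside it, 0 passed an unadjusted p of 0.05 in limma. Their median level relative to the wildtype mean was 0.13, -0.03 and -0.16 on the log2 scale in Mirc11-/- libraries 1 to 3, against 0.13, 0.06 and -0.21 in wildtype libraries 1 to 3. Samd1, which binds CpG islands, had a log2 fold change of 0.06.

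The 8 genes of RNA processing, translation, germ cells and meiosis included 2 that passed an unadjusted p of 0.05, both lower. Trmt1 (chr8:84686324-84699808, plus strand), the tRNA methyltransferase that makes dimethylguanosine, had 1583, 1601 and 1530 normalized counts in Mirc11-/- libraries 1 to 3, against 2106, 2121 and 1926 in wildtype libraries. The Mirc11-/- libraries lay close together, library 3 included, and all were below every wildtype library. The means were 1571 ± 37.4 in Mirc11-/- cells and 2051 ± 108 in wildtype cells (SD, n = 3 each), and the log2 fold change was -0.38 ± 0.08 (SE, limma adjusted p = 0.402). Adjusted p ran between 0.0545 and 0.998 over the alternatives. Trmt1 and Nacc1 overlap in span at their 5′ sides on opposite strands, and both were lower.

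Syce2, a central element protein of the meiotic synaptonemal complex, had 739, 719 and 685 normalized counts in Mirc11-/- libraries, against 976, 964 and 718 in wildtype libraries. Wildtype library 3 lay among the Mirc11-/- values, and the log2 fold change was -0.30 ± 0.13 (limma adjusted p = 0.597). Dhps, which makes hypusine on the translation factor eIF5A, had 428, 501 and 391 in Mirc11-/- libraries, against 514, 551 and 517 in wildtype libraries. Its genotypes did not overlap, and the log2 fold change was -0.27 ± 0.12 (limma adjusted p = 0.597). Ddx39 (now Ddx39a), an RNA helicase of messenger export, had a log2 fold change of 0.16, which was 0.34 without Mirc11-/- library 3 and -0.16 with the erythroid covariate. Rnaseh2a, the catalytic subunit of ribonuclease H2, had -0.05, and Wdr83, a WD repeat scaffold, had 0.10.

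Of 4 genes of mitochondria, lipid and redox enzymes, Tecr was lower and Prdx2 higher at an unadjusted p under 0.05. Tecr, the reductase of the last step in very-long-chain fatty acid elongation, had 3323, 3085 and 3126 normalized counts in Mirc11-/- libraries, against 3598, 3694 and 3490 in wildtype libraries. The genotypes did not overlap, though the difference was small, with a log2 fold change of -0.18 ± 0.07 (SE, limma adjusted p = 0.573). Gadd45gip1, a component of the mitochondrial ribosome, and Gcdh, a dehydrogenase of lysine breakdown, had log2 fold changes of -0.10 and -0.01.

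Prdx2 (chr8:84969622-84974811, plus strand), a peroxide-reducing enzyme abundant in red cells, had 7038, 6417 and 4520 normalized counts in Mirc11-/- libraries 1 to 3, against 5237, 4295 and 4102 in wildtype libraries 1 to 3. Mirc11-/- libraries 1 and 2 exceeded all others, and library 3 lay within the wildtype range at 0.0645% of their difference. The log2 fold change was 0.38 ± 0.16 over all libraries (limma adjusted p = 0.597) and 0.57 without Mirc11-/- library 3 (limma adjusted p = 0.0356). Without Mirc11-/- library 1 it was 0.25. When any library but Mirc11-/- library 3 was left out, limma adjusted p was 0.696 to 0.998. The libraries with high Prdx2 are those with high erythroid markers: relative to the wildtype mean, the median erythroid marker was at 1.43, 1.38 and -0.15 on the log2 scale in Mirc11-/- libraries 1 to 3, and at 0.47, -0.09 and -0.33 in wildtype libraries 1 to 3. With those markers as a covariate the log2 fold change of Prdx2 was 0.04.

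**Figure D4:**
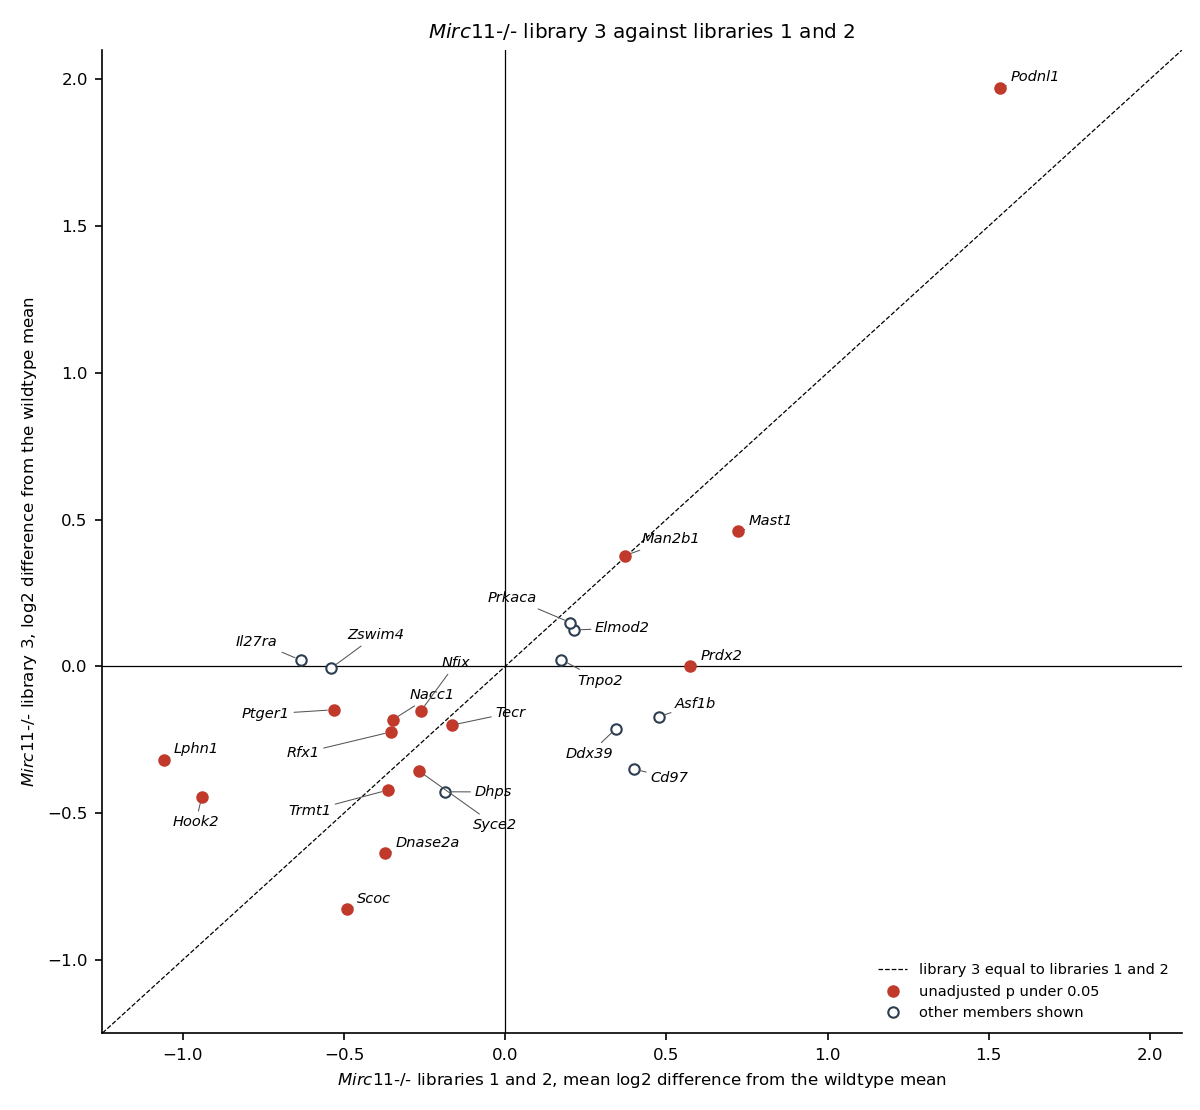
Log2 difference from the wildtype mean in Mirc11-/- library 3 (vertical axis) against the mean of Mirc11-/- libraries 1 and 2 (horizontal axis) for 24 neighbours, with neighbours of an unadjusted p under 0.05 in red. Open points are neighbours without overlap between the genotypes, and Zswim4, Il27ra, Cd97, Ddx39 and Asf1b, which were added by name. In those added by name library 3 showed -87.9% to 1.14% of the difference. The other neighbours are not shown, so the open points do not represent them. Man2b1 (102%) and Trmt1 (116%) lie near the dashed line of equality, Scoc (169%) and Dnase2a (171%) beyond it, and Lphn1 (30.0%), Ptger1 (27.8%) and Prdx2 (0.0645%) nearer to the horizontal line at 0.

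The neighbours thus differed in how Mirc11-/- library 3 behaved, the library that stood with the wildtype libraries over the genome. For Man2b1, Trmt1, Scoc, Dnase2a, Podnl1, Tecr and Syce2, library 3 showed 102% to 171% of the difference seen in libraries 1 and 2. For Mast1, Rfx1, Nfix, Nacc1 and Hook2 the share was 47.3% to 63.5%. It was 30.0% for Lphn1, 27.8% for Ptger1, 1.14% for Zswim4 and 0.0645% for Prdx2. All of these but Zswim4 were picked by an unadjusted p under 0.05 that library 3 entered, so a high share is partly built in. The same share over all genes was not computed. The part of other cell types in these differences was not tested. The erythroid covariate cannot test it, because its markers stood highest in Mirc11-/- libraries 1 and 2. Their median log2 level relative to the wildtype mean was 1.43 and 1.38 there, and -0.15 in Mirc11-/- library 3. In wildtype libraries it was -0.33 to 0.47. With the covariate a gene that differs mainly in libraries 1 and 2 can give a smaller log2 fold change whatever the cause. The markers also include Klf1, a left-out gene of the same region.

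**Figure D5:**
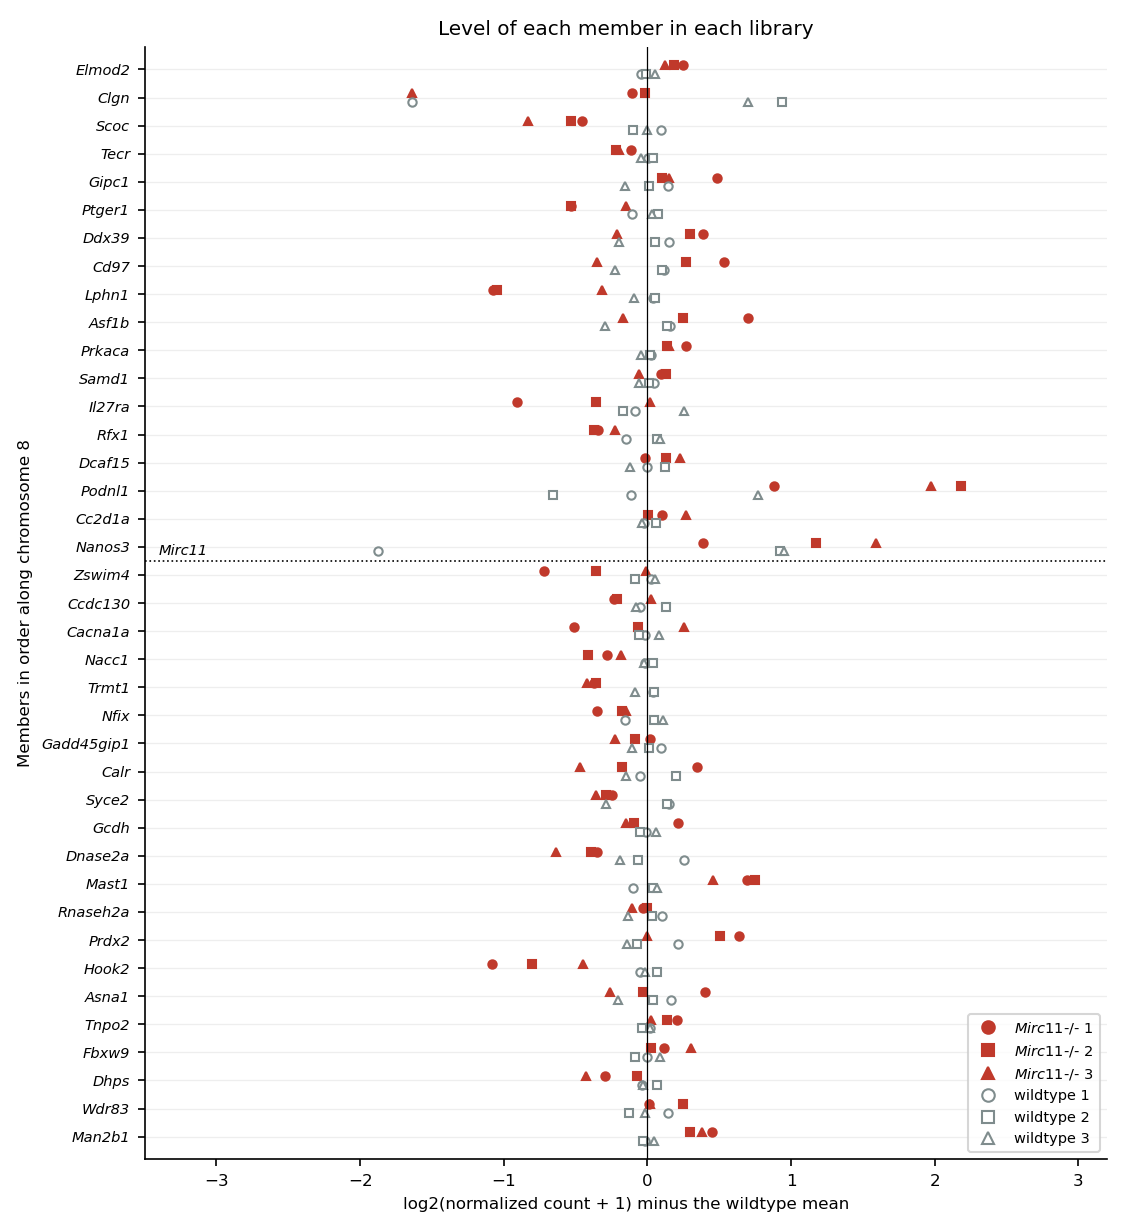
Log2 level of each neighbour in each library relative to the wildtype mean (horizontal axis), in order along chromosome 8 from lower to higher coordinates (top to bottom), with Mirc11-/- libraries as filled red and wildtype libraries as open grey symbols. The dotted line marks Mirc11, and 16 of the 39 neighbours show no overlap between red and grey.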

How the data were processed

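Poly(A) RNA of 3 Mirc11-/- and 3 wildtype LSK libraries was sequenced and, per the submitters' processing notes, aligned with STAR to mm10 and summarised with Cufflinks. Their versions are not stated. The table that the authors deposited holds a signal per gene that is not divided by gene length. Every value is a whole multiple (within 0.001) of a step close to 1 in its library, so it is called a normalized count, and steps give the depth. Count tests planned on recovered reads were not run. All 6 columns were mapped to samples by name, leaving 0 unmapped. The 23999 entries hold 23997 symbols, and entries of 2 date-like symbols were summed.

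All genes whose mean reached 1 were tested on log2(value + 1) with limma 3.58.1 (R 4.3.3), empirical Bayes with a mean-variance trend, two-sided, Benjamini-Hochberg over 15662 genes, threshold 0.05. A log2 fold change on this scale understates the change of low genes. The procedure was tested on simulated data with independent libraries and the same spread of a gene in all of them. These lacked the split of Mirc11-/- library 3 from the others, so the test does not cover its effect. Positions were found for 99.3% of tested genes (RefSeq GRCm38.p6), and overlaps and UTRs come from GENCODE M21. Figures and tables used pandas 2.3.3 and matplotlib 3.10.9. The 39 neighbours, role groups and marker lists were chosen with earlier results of these data known. Values per library are given for the 24 neighbours with an unadjusted p under 0.05, with genotypes that do not overlap, or among the 3 nearest on either side. Calr was given in full after its values were seen. Alternatives changed the pseudocount, filter, scaling, trend, replicate block, erythroid covariate and libraries.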

Additional observations from a re-analysis of the deposited data

How the results depend on the processing

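Over the alternatives run, 565 of the recomputed values kept their direction and side of the threshold and 15 turned direction. No neighbour passed the adjusted threshold in any fit except the one without Mirc11-/- library 3, so that leaving out each library gave 0 to 4. The number of neighbours with an unadjusted p under 0.05 was 10 to 21, while the share of all genes in the same fits was 3.96% to 20.0%. Over all genes, leaving out each library gave 1 to 430 genes at the adjusted threshold, with 430 without Mirc11-/- library 3, against 5 in the full comparison. With the replicate number as a block (replicate block), 30 genes and 0 neighbours passed, and 21 neighbours had an unadjusted p under 0.05, as did 12.2% of all genes. Libraries of the same number deviated from their group means with correlations of 0.07, -0.06 and 0.10. For libraries of different numbers these were -0.133 to 0.074. Low correlations over all genes cannot settle whether libraries of the same number were prepared together, and this was not tested.

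Direction was kept under every alternative for 30 neighbours and turned at least once for 9. With the erythroid covariate the log2 fold change was -0.163 for Ddx39, -0.273 for Cd97, -0.146 for Asf1b, -0.038 for Samd1, 0.198 for Cacna1a and -0.267 for Asna1. Leaving out each library gave -0.042 to 0.399 for Cd97, -0.291 to 0.093 for Cacna1a, -0.323 to 0.086 for Calr, -0.121 to 0.061 for Gcdh, -0.114 to 0.002 for Rnaseh2a and -0.147 to 0.183 for Asna1. The cause was not tested. None of these 9 had an unadjusted p under 0.05. Clgn and Nanos3 had the fewest reads, at 10.1 normalized counts or fewer in every library.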

Other observations

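Of the 6 genes of the region that were left out of the 39 neighbours, only Tbc1d9 lies at lower coordinates than Mirc11. Mri1, Ier2, Lyl1, Klf1 and Junb all lie at higher coordinates. The region also holds 19 further tested genes that lie between the outermost neighbours and belong to neither list. Of these 19, 5 had an unadjusted limma p under 0.05, all lower in Mirc11-/- cells: Dnajb1, a heat shock co-chaperone, Palm3, Dand5, Rtbdn and Wdr83os. They are named because they make up that count, and were chosen after their values were seen. Their log2 fold changes were -0.87 for Dnajb1, -1.67 for Palm3, -0.79 for Dand5, -1.63 for Rtbdn and -0.35 for Wdr83os. The share of 26.3% stands beside 38.5% of the neighbours and 8.24% of all genes, and the difference between these shares was not tested.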
